A study of Mus musculus with 10 samples.

Results

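CD-numbered surface antigen genes are the genes whose mouse symbol is itself a cluster of differentiation number, such as Cd34, Cd33 or Cd52. They were found by pairing the RefSeq accessions of the array's probes with gene symbols and taking those made of Cd, a number and at most 1 letter. Of 78 such symbols 76 had a named probe, and 54 had a probe well above background on at least 2 of the 10 arrays, out of 20660 named genes. For each gene the brightest probe was used, and 53 of the 54 genes entered the tests, because 1 spot of Cd3d was missing. Cd40 and Cd79a entered with 2 arrays well above background, with highest levels of -3.01 and -3.76 log2. Cd207, Cd276, Cd46 and Cd8a stayed out with 1 array, with highest levels of -2.58, -4.70, -4.56 and -3.86 log2. Cd109, Cd160, Cd163, Cd2, Cd200, Cd209a, Cd209b, Cd209c, Cd209e, Cd209g, Cd226, Cd247, Cd24a, Cd302, Cd36, Cd70, Cd83 and Cd96 were well above background on no array.

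The arrays measured RNA of EML-C1, an established line of mouse blood progenitors with both erythroid and myeloid potential. EPO-treated cells received 10 ng/ml erythropoietin. Cells of the GM-CSF/IL-3 treatment received IL-3 at 10 ng/ml together with ATRA (all-trans retinoic acid) at 10 µM from day 0, with 10 ng/ml GM-CSF added only after day 3. The EPO+GM-CSF/IL-3 treatment, called combined below, held EPO beside the same IL-3, ATRA and later GM-CSF. Each treatment gave 3 arrays, namely Sca1-low and Sca1-high cells at day 3 and cells of day 6 for which no fraction is named. Untreated cells of day 0 gave the remaining array. All cells grew in horse serum with conditioned medium of BHK/MKL cells, so the untreated cells had those factors too. Each condition had 1 array. The design text speaks of duplicates, and a second set was not analysed here. With 1 array a condition, and nothing to tie conditions to separate cultures, every p-value below measures the spread between these arrays, which may in part be technical.

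CD antigens are cell surface molecules first grouped by the antibodies that recognise them, and blood cell types are routinely sorted by which of them they carry. They share no function: some are receptors or their co-receptors, some are adhesion molecules or tetraspanins that organise other membrane proteins, and some shield the cell from complement or phagocytes. Cd34, a sialomucin, is the classical marker of blood progenitors, and erythroid cells lose most leukocyte antigens as they mature. Sca1, the antigen used for the sort, is encoded by Ly6a and marks mouse stem and progenitor cells.

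Levels are log2 intensities relative to each array's 75th percentile, so 0 is the signal of that percentile and 1 unit is a 2-fold difference. That percentile lay between an intensity of 309 on the EPO Sca1-low array and 736 on the untreated array, and between 78.4% and 94.9% of 14217 tested genes were well above background per array. The lowest level well above background lay between -5.37 and -4.22 on 9 arrays and at -7.50 on the GM-CSF/IL-3 Sca1-high array. Repeat spots had a median SD of 0.0436 to 0.0863 log2. The sort itself could be read on the arrays: Ly6a had levels of -4.25, -3.43 and -2.80 in Sca1-low cells under EPO, GM-CSF/IL-3 and the combined treatment, against 4.76, 2.64 and 1.89 in Sca1-high cells. A list of 6 measured erythroid markers, among them Hba-a1, Epor and Klf1, had a summed level between 8.26 and 9.39 in Sca1-low cells, against 4.91 to 5.56 in Sca1-high cells. Its level was 9.85, 1.42 and 4.62 at day 6 under EPO, GM-CSF/IL-3 and the combined treatment, and 3.84 in untreated cells. A list of 7 neutrophil markers, among them S100a8, Ltf and Camp, summed to -0.44, 10.57 and 10.19 at day 6 in the same order of treatments, and to -1.23 in untreated cells. Fibroblast markers summed to between -2.49 and -0.84 over the 10 arrays, with 1 to 3 of 5 well above background, and endothelial markers to between 3.88 and 5.42 with 2 or 3 of 5. B lymphoid markers summed to between -1.46 and -0.19 with 1 to 3 of 6 well above background, and T lymphoid markers to between 1.34 and 3.00 with 2 to 4 of 5.

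The CD antigen genes spread over most of the range of the array. The brightest probes by mean level were those of Cd63 at 7.67, Cd47 at 6.45, Cd48 at 5.57, Cd81 at 4.99, Cd164 at 4.95 and Cd99 at 4.94. Cd63 and Cd81 are tetraspanins, Cd47 is the self signal read by macrophages, Cd48 is a ligand of Cd244a, and Cd164 is a sialomucin. Signals of different probes are not compared as amounts of RNA. Of the 54 genes 30 were well above background on all 10 arrays. Over the 10 arrays the median range of the 53 tested genes was 2.60 log2, beside 1.56 for all tested genes, and 26 of them (49.1%) had a range of at least 3, beside 19.1% of all tested genes. The 53 genes were also dimmer, with a median mean level of -0.37, beside 0.66 for all tested genes. On all 10 arrays 30 of the 53 and 10621 of all 14217 tested genes were well above background. The ranges of dim genes include values near background. These shares are descriptions and not tests. The smallest ranges were 0.93 for Cd9, 1.104 for Cd101, 1.11 for Cd300a, 1.13 for Cd99 and 1.18 for Cd63. Tetraspanins other than Cd53, the adhesion molecules Cd99 and Cd44, and Cd320 stayed well above background on every array, as the map of levels shows.

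**Figure D1:**
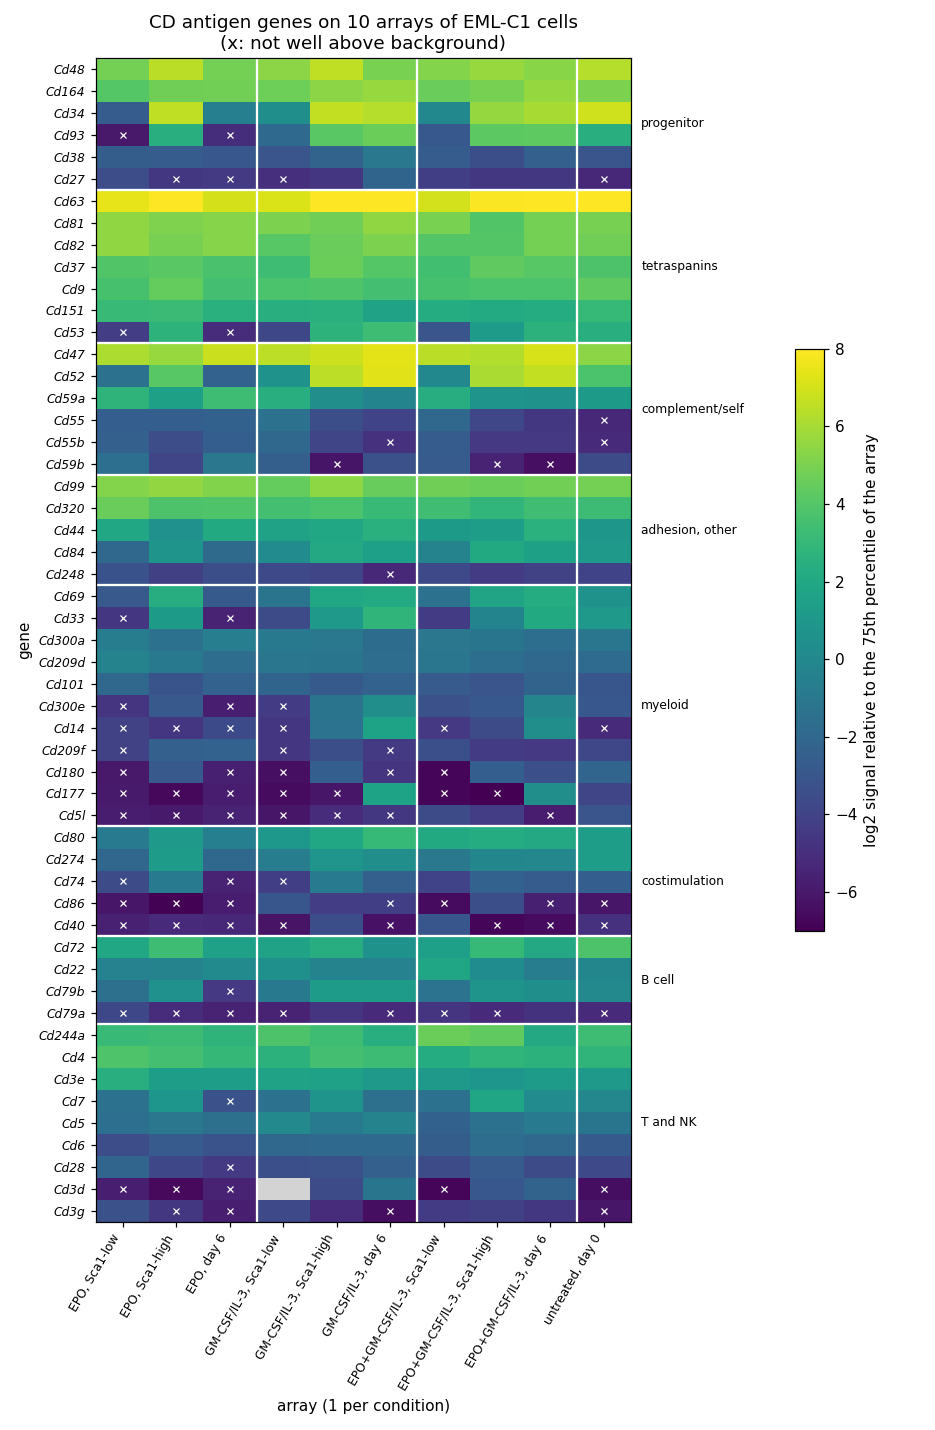
Levels of 53 of the 54 CD antigen genes (rows, grouped by role and ordered by mean level) on the 10 arrays (columns), as log2 signal relative to the 75th percentile of the array. Crosses mark arrays where the probe was not well above background, and the grey cell is the missing Cd3d value. Cd34, Cd93, Cd52, Cd53 and Cd33 are lower on the 3 Sca1-low arrays and on the EPO day 6 array than on the other 6 arrays.

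The comparison of Sca1-low with Sca1-high cells asks which antigens went with the loss of Sca1 at day 3 whichever treatment was given. In Sca1-low cells 12 antigens fell, with the largest differences for Cd93, Cd34, Cd53, Cd52 and Cd33, and the 3 that rose were Cd59a, Cd59b and Cd55b, the last on 1 of its 2 probes. In the limma fit of the 6 day 3 arrays, 15 of 53 genes (28.3%) passed an adjusted p of 0.05, beside 11.1% of all 14217 tested genes. Of these 12 were lower in Sca1-low cells, beside 6.98% of all genes, and 3 were higher, beside 4.09%. The fit pairs the fractions within each treatment, so its error is the difference between treatments, with 3 pairs. At an unadjusted p under 0.05, 25 of the 53 genes passed, beside 30.9% of all genes. Groups did not overlap for 26 of the 53 genes, beside 35.8% of all genes. Of the 53, 20 were lower in Sca1-low cells without overlap, beside 14.4% of all genes, and 6 were higher, beside 21.4%. The median difference was -0.34 for the 53 genes and 0.17 for all tested genes. The calls depended on the arrays in the fit. Without the GM-CSF/IL-3 pair, or with all 10 arrays in 1 additive model, 0 of the 53 genes passed in limma, with lowest adjusted p of 0.0544 and 0.111 among the 15. At an unadjusted p under 0.05, 19 and 21 of the 53 genes passed in these fits, beside 3437 and 3582 of 14217 tested genes. Without the combined pair 9 of the 53 passed the adjusted threshold, beside 464 of 14217 tested genes. With the EPO pair left out 17 of the 53 passed, beside 2309 of 14217. Less RNA of a gene per cell and fewer cells that carry it cannot be told apart in these bulk samples.

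**Figure D2:**
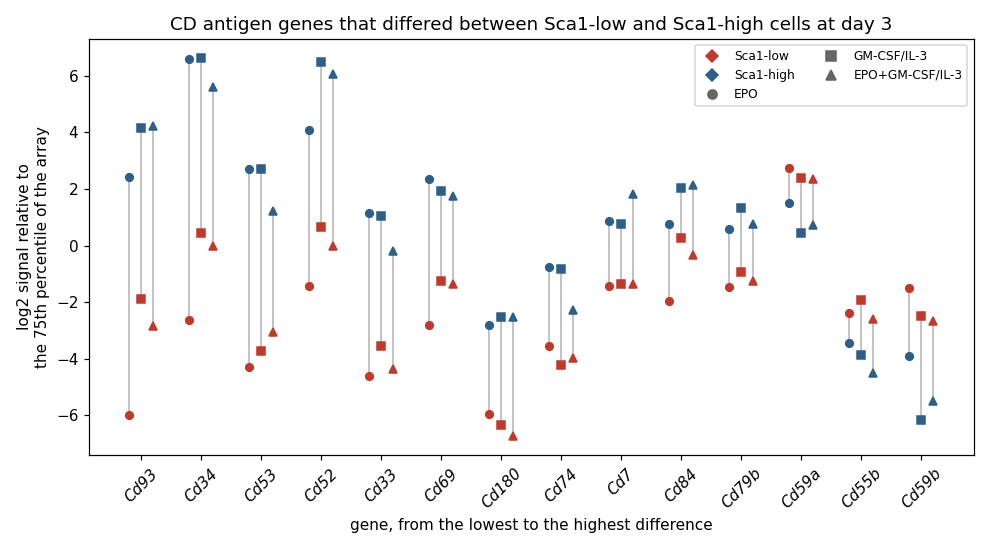
Levels of 14 of the 15 genes that passed the test between Sca1-low (red) and Sca1-high (blue) cells at day 3, as log2 signal relative to the 75th percentile of the array, with the treatment given by the marker shape and a grey line joining the 2 fractions of a treatment. From Cd93 to Cd79b all 3 red points lie below all blue points, and for Cd59a, Cd55b and Cd59b all 3 lie above.

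Among 6 tested genes of progenitors, Cd34 and Cd93 fell and none rose, beside 6.98% and 4.09% of all tested genes. Counts in groups this small, here and below, are not read as results about the groups. Cd34 had levels of -2.64, 0.44 and 0.0001 in Sca1-low cells under EPO, GM-CSF/IL-3 and the combined treatment, against 6.59, 6.64 and 5.61 in Sca1-high cells. The 3 Sca1-high arrays lay within about 1 unit of each other and the Sca1-low arrays did not, with EPO the lowest. The mean difference was -7.01 (SE 0.76, adjusted p = 0.0118 in limma, 3 of 3 pairs lower), which is 129-fold. A second Cd34 probe, dimmer by 5.46 on average, gave a mean difference of -5.43. Cd93, a C-type lectin-like receptor of early progenitors, myeloid cells and endothelium, had levels of -6.00, -1.87 and -2.85 in Sca1-low cells, against 2.41, 4.17 and 4.22 in Sca1-high cells. Its difference was -7.17 (SE 0.49, adjusted p = 0.00536), and 2 of 3 Sca1-low arrays were well above background. Cd48 had a difference of -1.07 and did not pass (adjusted p = 0.0884). The erythroid marker list moved opposite to these genes, with 6 of 6 measured markers higher in Sca1-low cells, and its part in the result was not tested.

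**Figure D3:**
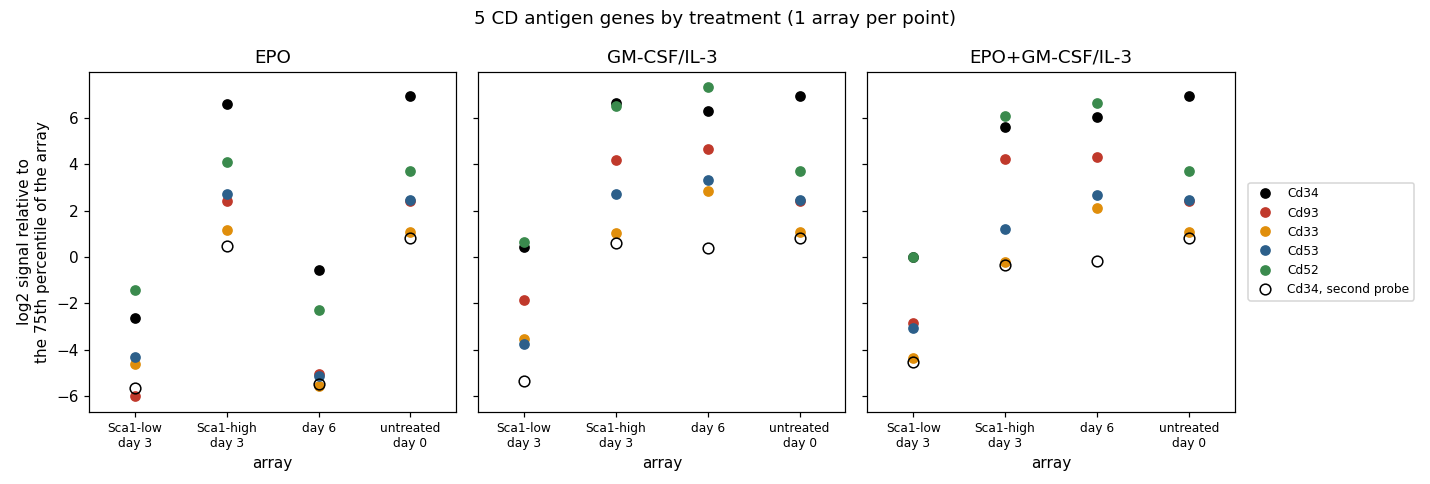
Levels of Cd34 (filled black, with its second probe as open circles), Cd93, Cd33, Cd53 and Cd52 in the Sca1-low, Sca1-high, day 6 and untreated arrays, 1 panel per treatment, as log2 signal relative to the 75th percentile of the array. The same untreated array stands in each panel. Day 6 lies near the Sca1-low points under EPO and near the Sca1-high points under GM-CSF/IL-3 and the combined treatment.

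Upstream windows of 4 of the genes that differed are shown, since Cd34, Cd53 and Cd33 fell together and Cd59a rose. They were chosen after their values were seen and hold the 250 bases before the transcript start that the RefSeq promoter table (GRCm38.p6) gives, read along the gene's strand. For Cd33 and Cd59a the annotated gene begins farther upstream than that start, so that the Cd33 window lies inside the gene and the Cd59a window overlaps its first bases. Capitals mark matches on either strand to AGATAA (a core of sites of GATA factors), GAGGAA (PU.1) and TGTGGT (RUNX), and no matches overlap in these windows. The windows are chr1:194938571-194938820 on the plus strand for Cd34, chr3:106790150-106790399 on the minus strand for Cd53, chr7:43533172-43533421 on the minus strand for Cd33 and chr2:104095551-104095800 on the plus strand for Cd59a.
Cd34: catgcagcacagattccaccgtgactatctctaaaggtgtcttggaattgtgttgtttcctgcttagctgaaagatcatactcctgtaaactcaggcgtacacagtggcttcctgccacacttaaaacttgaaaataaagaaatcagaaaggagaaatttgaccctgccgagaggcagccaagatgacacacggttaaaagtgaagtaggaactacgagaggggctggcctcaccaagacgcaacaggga
Cd53: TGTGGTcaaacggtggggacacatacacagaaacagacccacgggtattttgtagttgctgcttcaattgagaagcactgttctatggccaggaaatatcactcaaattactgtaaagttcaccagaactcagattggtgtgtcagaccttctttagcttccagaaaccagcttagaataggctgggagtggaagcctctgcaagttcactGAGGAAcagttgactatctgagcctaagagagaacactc
Cd33: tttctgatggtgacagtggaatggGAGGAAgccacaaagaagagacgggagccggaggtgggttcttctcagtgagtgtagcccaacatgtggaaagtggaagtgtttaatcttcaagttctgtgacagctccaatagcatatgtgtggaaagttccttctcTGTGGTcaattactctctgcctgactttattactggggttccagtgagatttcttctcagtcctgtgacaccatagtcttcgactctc
Cd59a: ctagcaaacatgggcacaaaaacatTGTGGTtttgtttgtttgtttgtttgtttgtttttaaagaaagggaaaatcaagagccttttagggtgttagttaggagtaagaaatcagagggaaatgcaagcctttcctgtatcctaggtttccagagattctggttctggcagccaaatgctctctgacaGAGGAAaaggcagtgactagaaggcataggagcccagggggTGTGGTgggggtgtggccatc

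None of the 4 windows held AGATAA, those of Cd53, Cd33 and Cd59a each held GAGGAA 1 time, and TGTGGT stood 1 time in those of Cd53 and Cd33 and 2 times in that of Cd59a. The Cd34 window held none of the 3. Over 32851 windows of the same length in the RefSeq table, 9.99% held AGATAA, 23.3% GAGGAA and 14.0% TGTGGT. Of the 54 CD antigen genes 39 had an entry, with 46 windows, of which 6 held AGATAA, 19 GAGGAA and 9 TGTGGT. These matches are letters in a short window and were not tested.

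Of 7 tested tetraspanins only Cd53, which is found across leukocytes, passed, beside 11.1% of all tested genes. It had levels of -4.30, -3.74 and -3.06 in Sca1-low cells under EPO, GM-CSF/IL-3 and the combined treatment, against 2.71, 2.71 and 1.22 in Sca1-high cells, and 2 of 3 Sca1-low arrays were well above background. The difference was -5.91 (SE 0.58, adjusted p = 0.00972 in limma). Cd63 lay just outside the threshold, with a difference of -0.83 (adjusted p = 0.0698), and differed by at most 1.18 over all 10 arrays.

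Among 11 tested myeloid antigens 3 fell and none rose, beside 6.98% and 4.09% of all tested genes. Cd33, an inhibitory receptor of the Siglec family, had levels of -4.63, -3.54 and -4.35 in Sca1-low cells, against 1.15, 1.03 and -0.21 in Sca1-high cells. Its difference was -4.83 (SE 0.37, adjusted p = 0.00637 in limma), and it cleared the background on 2 of 3 Sca1-low arrays. The neutrophil list summed to between -0.14 and 1.79 in Sca1-low cells, against -0.09 to 6.53 in Sca1-high cells, with 0 of 7 markers past the threshold (0 also at an unadjusted p under 0.05), and its part in the myeloid antigens was not tested. Cd69, an early activation antigen, fell by 3.81 (SE 0.49, adjusted p = 0.0165). Cd180, a relative of the Toll-like receptors, was well above background on no Sca1-low array and on all 3 Sca1-high arrays, so that it was at least 3.53-fold lower in Sca1-low cells (adjusted p = 0.00618). Such a bound sets the brighter arrays against the lowest level well above background, or the dim probe's own level where that is higher. Cd14 and Cd300e, which mark monocytes and granulocytes, did not pass.

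Of the lymphoid and other groups, 2 of 5 tested B cell antigens and 1 of 8 T and NK cell antigens fell, and none rose. Of 5 costimulation genes 1 fell, as did 1 of 5 genes in the adhesion group, which also holds Cd320. None of these rose. Of all tested genes 6.98% fell and 4.09% rose. Cd79b, a signalling partner of the B cell receptor, had levels of -1.47, -0.95 and -1.27 in Sca1-low cells, against 0.58, 1.32 and 0.78 in Sca1-high cells. It fell by 2.12 (SE 0.20, adjusted p = 0.00938 in limma). Cd72 missed the threshold at -1.20 (adjusted p = 0.0521). Cd7, an early T and NK cell antigen, had levels of -1.41, -1.36 and -1.37 in Sca1-low cells, against 0.88, 0.76 and 1.82 in Sca1-high cells, and fell by 2.54 (SE 0.29, adjusted p = 0.0127). Cd74, the invariant chain of class II molecules, fell by 2.62 (adjusted p = 0.0216), measured above background on 1 of 3 Sca1-low arrays, and the SLAM family receptor Cd84 fell by 2.33 (adjusted p = 0.0133). With the mean of its 2 probes Cd84 had -2.23 and did not pass (adjusted p = 0.0526). Cd79a, the other signalling partner of the B cell receptor, was well above background on 2 of 10 arrays and the B lymphoid marker list, which holds Cd79a too, summed to below 0 on every array. The B cell antigen Cd22 and the T cell antigens Cd3e, Cd5 and Cd4 were well above background on all 10 arrays. Cd4 had a mean level of 3.03, and a second Cd4 probe was dimmer by 6.85 and correlated with the first at r = 0.553 over the 10 arrays.

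The group of genes that shield the cell surface also holds Cd52. Of its 6 tested genes 3 rose and 1, Cd52, fell, beside 4.09% and 6.98% of all tested genes. Cd52, a small GPI-anchored glycoprotein of lymphocytes and myeloid cells, had levels of -1.42, 0.66 and -0.0032 in Sca1-low cells, against 4.08, 6.51 and 6.08 in Sca1-high cells. Its 3 differences were -5.50, -5.85 and -6.08 under EPO, GM-CSF/IL-3 and the combined treatment, the mean was -5.81 (SE 0.22), and its adjusted p of 0.00398 in limma was the lowest of the 53 genes. The complement inhibitor Cd59a had levels of 2.74, 2.40 and 2.34 in Sca1-low cells, against 1.52, 0.43 and 0.74 in Sca1-high cells, and rose by 1.60 (SE 0.24, adjusted p = 0.0239). Its related gene copy Cd59b rose by 2.96 (SE 0.32, adjusted p = 0.0116), with 1 of 3 Sca1-high arrays well above background. That size depended on the background correction, with 1.00 under the normexp alternative described below. Cd55b, a decay-accelerating factor, rose by 1.63 (SE 0.27, adjusted p = 0.029). A second Cd55b probe of similar brightness, well above background on 4 of 10 arrays, had a difference of -1.56. It correlated with the first at r = 0.226 over the 10 arrays, and with the mean of both probes the adjusted p in limma was 0.972. Cd55 did not pass, with 0.02, 2.04 and 1.85 in the 3 treatments (adjusted p = 0.143). The probes of Cd59a and Cd59b, and of Cd55 and Cd55b, may each read the RNA of the other copy.

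A list of 50 CD antigens known under other symbols was set beside these genes, and 43 of them were tested. Of these 9 rose in Sca1-low cells, beside 4.09% of all tested genes. They include the transferrin receptor Tfrc and the red cell antigens Slc4a1, Kel and Rhd. Of the 43, 11 fell, beside 6.98% of all tested genes. Among those were Ptprc (the leukocyte common antigen), Fcer1g and Csf2rb. The named genes are examples picked after their values were seen, and the others that passed are not named here. The median difference of the 43 was -0.55.

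By treatment, genes were counted where Sca1-low and Sca1-high cells lay at least 2-fold apart with the higher array well above background. Under EPO 27 of the 53 genes (50.94%) were counted, beside 27.0% of all tested genes. Of the 53, 18 were lower (33.96% beside 14.7%) and 9 higher (16.98% beside 12.3%). Under GM-CSF/IL-3 25 (47.17%) were counted, beside 23.2%, with 19 lower (35.85% beside 13.9%) and 6 higher (11.32% beside 9.26%). Under the combined treatment 22 (41.51%) were counted, beside 23.8%, with 14 lower (26.42% beside 12.0%) and 8 higher (15.09% beside 11.8%). No test is possible between single arrays. Cd34 led under EPO at -9.23, and Cd93, Cd53 and Cd33 were at least 130-fold, 129-fold and 54.5-fold lower there, with the Sca1-low array not well above background. Under GM-CSF/IL-3 the lowest were Cd53 at -6.45, Cd34 at -6.20, Cd93 at -6.04 and Cd52 at -5.85. Under the combined treatment they were Cd93 at -7.07, Cd52 at -6.08, Cd34 at -5.61 and Cd53 at -4.28. At the other end stood Cd59b in each treatment, with Cd28 at 1.67 and Cd44 at 1.39 under EPO, Cd55 at 2.04 and Cd59a at 1.97 under GM-CSF/IL-3, and Cd40, at least 3.97-fold higher, under the combined treatment.

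At day 6 the treatments are set against the untreated array, which all 3 comparisons share. In EPO cells 26 of the 53 genes (49.06%) were at least 2-fold apart, beside 26.5% of all tested genes. Of the 53, 19 were lower (35.85% beside 14.9%) and 7 higher (13.21% beside 11.6%). In GM-CSF/IL-3 cells 24 (45.28%) were, beside 19.5%, with 9 lower (16.98% beside 9.6%) and 15 higher (28.3% beside 9.9%). In combined cells 16 (30.19%) were, beside 14.7%, with 6 lower (11.32% beside 6.31%) and 10 higher (18.87% beside 8.42%). The median difference of the 53 genes was -0.40, 0.28 and 0.20, and of all tested genes 0.16, -0.07 and -0.02. The EPO, combined and untreated arrays shared a slide and the GM-CSF/IL-3 array was on another.

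**Figure D4:**
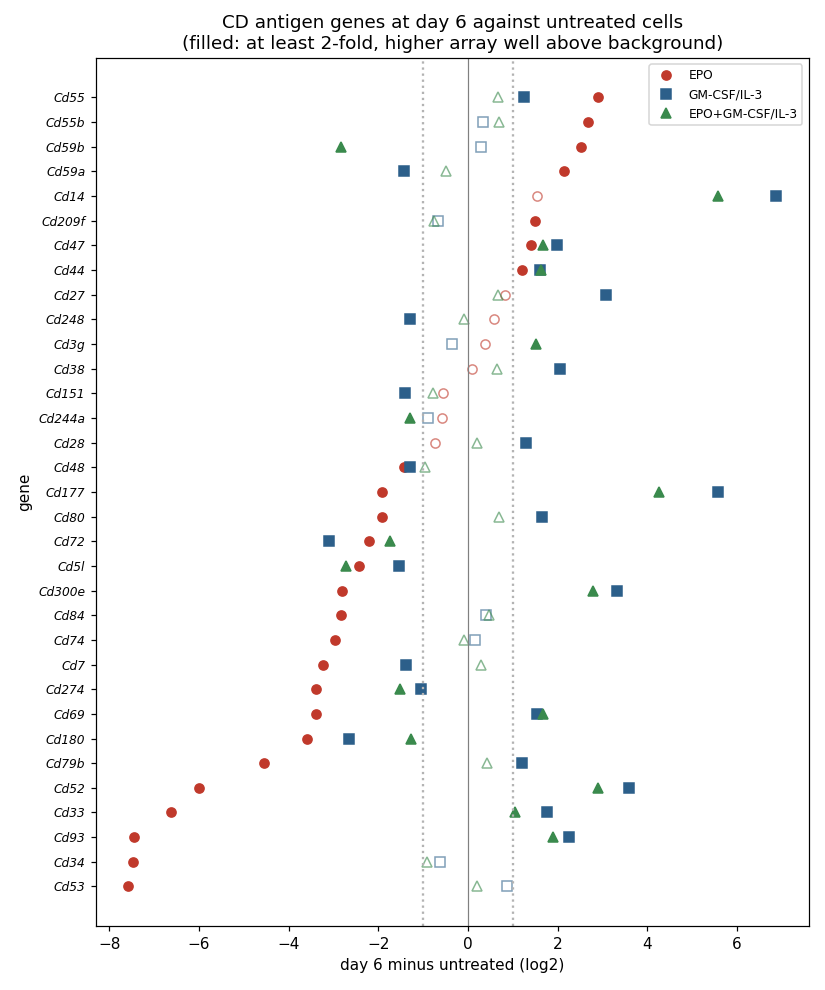
Day 6 minus untreated differences on the log2 scale (horizontal axis) of the named CD antigen genes at least 2-fold apart in 1 or more treatments, for EPO (red circles), GM-CSF/IL-3 (blue squares) and the combined treatment (green triangles). Filled symbols are at least 2-fold with the higher array well above background, and dotted lines mark 2-fold. Cd53, Cd34, Cd93, Cd33 and Cd52 lie at or under -6 with EPO and above -1 with the other 2 treatments.

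The progenitor antigen Cd34 stood at -0.55, 6.31 and 6.01 at day 6 under EPO, GM-CSF/IL-3 and the combined treatment, against 6.92 in untreated cells. Its difference was -7.48 under EPO, -0.61 under GM-CSF/IL-3 and -0.91 under the combined treatment. Cd93 stood at -5.06, 4.65 and 4.30, against 2.40 in untreated cells. It was at least 106-fold lower under EPO, and its differences were 2.25 under GM-CSF/IL-3 and 1.89 under the combined treatment. Cd53 was at -5.12, 3.33 and 2.66, against 2.46 in untreated cells, and so at least 110-fold lower under EPO. Under GM-CSF/IL-3 the ectoenzyme Cd38 had a difference of 2.05, and Cd27, a relative of the TNF receptors, was at least 8.39-fold higher. The summed erythroid markers were highest on the EPO day 6 array, where Cd34, Cd93 and Cd53 were low, and their part in it was not tested.

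Of the myeloid antigens Cd14, Cd177, Cd300e, Cd33 and Cd69 were higher than in untreated cells at day 6 under GM-CSF/IL-3 and under the combined treatment. Other myeloid antigens were not. Cd180, a Toll-like receptor homologue, was at least 4.53-fold lower under GM-CSF/IL-3 and had -1.28 under the combined treatment. Cd101, Cd300a and Cd209d differed from untreated cells by less than 2-fold in both treatments, and Cd209f had -0.75 under the combined treatment and was not well above background under GM-CSF/IL-3. Cd14, the lipopolysaccharide co-receptor, stood at -3.62, 1.71 and 0.41 under EPO, GM-CSF/IL-3 and the combined treatment, against -5.17 in untreated cells. With the untreated and EPO arrays not well above background, it was at least 118-fold and 47.8-fold higher than in untreated cells under GM-CSF/IL-3 and the combined treatment. Cd177, a neutrophil glycoprotein, stood at -5.77, 1.72 and 0.41, against -3.86 in untreated cells, with differences of 5.58 under GM-CSF/IL-3 and 4.27 under the combined treatment. Cd300e, an activating receptor of monocytes, stood at -5.76, 0.39 and -0.15, against -2.95 in untreated cells. Cd33 stood at -5.56, 2.83 and 2.11, against 1.07, and was at least 42.2-fold lower under EPO. The summed neutrophil markers were high on the 2 arrays where these genes were high, and their part in it was not tested.

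Cd52 stood at -2.28, 7.31 and 6.62, against 3.72 in untreated cells, with differences of -6.00, 3.59 and 2.90. Cd59a stood at 3.33, -0.24 and 0.70, against 1.19, and was the 1 complement inhibitor measured well above background on all these arrays. Cd55, Cd55b and Cd59b were higher than in untreated cells under EPO, at least 7.51-fold, at least 6.37-fold and by 2.52 log2. Cd47 was higher in all 3 treatments, by 1.42, 1.98 and 1.67, and so was the hyaluronan receptor Cd44, by 1.20, 1.61 and 1.64. Cd72 was lower in all 3, with differences of -2.20, -3.09 and -1.73, as was the checkpoint ligand Cd274, with -3.38, -1.04 and -1.51. Cd5l, a secreted macrophage protein despite its number, was at least 2.43-fold, 2.32-fold and 4.98-fold lower.

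At day 3 more genes were at least 2-fold from the untreated array in Sca1-low cells than in Sca1-high cells of each treatment. Under EPO they were 31 of 53 (58.49%) in Sca1-low cells, beside 36.3% of all tested genes, and 7 (13.21%) in Sca1-high cells, beside 5.51%. Under GM-CSF/IL-3 they were 24 (45.28%), beside 18.5%, and 19 (35.85%), beside 16.2%. Under the combined treatment they were 27 (50.94%), beside 22.0%, and 18 (33.96%), beside 15.2%. The day 3 arrays were on other slides than the untreated array, so slide and day cannot be told apart here. Cd34 in Sca1-high cells was at 6.59, 6.64 and 5.61 under EPO, GM-CSF/IL-3 and the combined treatment, against 6.92 in untreated cells. Cd52 in Sca1-high cells differed from untreated cells by 2.79 under GM-CSF/IL-3 and 2.35 under the combined treatment. Cd14 was already at least 15.0-fold higher in GM-CSF/IL-3 Sca1-high cells, before GM-CSF was added. Cd86, a ligand of Cd28, was at least 3.58-fold higher in combined Sca1-high cells and at least 4.80-fold higher in GM-CSF/IL-3 Sca1-low cells. Cd55 was at least 6.58-fold, 14.6-fold and 9.75-fold higher in Sca1-low cells of the 3 treatments than in untreated cells. Cd3g was at least 3.96-fold higher in EPO Sca1-low cells than in untreated cells, and Cd22 had a difference of 1.94 in combined Sca1-low cells.

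Within a treatment, the day 6 arrays were set against the day 3 fractions. EPO day 6 cells differed at least 2-fold from EPO Sca1-low cells in 9 of 53 genes (16.98%), beside 13.5% of all tested genes. From EPO Sca1-high cells they differed in 22 (41.51%), beside 27.5%. For GM-CSF/IL-3 the counts were 24 (45.28%) against Sca1-low cells, beside 25.6%, and 17 (32.08%) against Sca1-high cells, beside 13.8%. For the combined treatment they were 27 (50.94%), beside 25.7%, and 12 (22.64%), beside 12.4%. Cd34 differed by 2.09 between EPO day 6 and Sca1-low cells, whereas Cd79b was at least 7.28-fold and Cd28 at least 4.71-fold lower. Cd177 was at least 221-fold higher at day 6 than in Sca1-high cells under GM-CSF/IL-3 and at least 42.4-fold higher under the combined treatment. These bounds are not alike, since the lowest level well above background was -7.50 and -5.00 on the Sca1-high arrays. The signals themselves lay 7.79 and 7.72 log2 apart. Cd14 was higher by 2.97 and 3.94 in the same comparisons. Cd7 was lower at day 6 than in Sca1-high cells, with -2.20 under GM-CSF/IL-3 and -1.59 under the combined treatment. In each treatment the day 6 array was on another slide than the day 3 arrays.

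Across the 3 populations, the treatments were compared in limma on the 9 treated arrays, and 0 of 53 genes passed an adjusted p of 0.05 in each of the 3 contrasts, beside 0.00703%, 0.0% and 0.00703% of all tested genes. At an unadjusted p under 0.05, 12 of the 53 genes passed for EPO against GM-CSF/IL-3, beside 18.9% of all genes. For the combined treatment 1 of the 53 passed against GM-CSF/IL-3, beside 1.84%, and 12 of the 53 against EPO, beside 23.6%. EPO minus GM-CSF/IL-3 was -5.20 for Cd93 (SE 1.54, adjusted p = 0.213), -4.70 for Cd52 (SE 1.59, adjusted p = 0.226) and -3.33 for Cd34 (SE 1.37, adjusted p = 0.263). Cd300e, Cd86 and Cd79b had -2.71, -2.41 and -2.34. Cd86 was well above background on no EPO array, so that its signal shows only that it was at least 1.80-fold lower. For Cd34 the difference was -3.09 in Sca1-low cells, -0.05 in Sca1-high cells and -6.86 at day 6, so that the populations did not share 1 size of difference.

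Combined minus GM-CSF/IL-3 was smaller, at -0.59 for Cd34 (SE 1.37), -0.60 for Cd52 (SE 1.59), -0.92 for Cd33 (SE 1.78) and for Cd177 (SE 1.60), -1.15 for Cd5 and -0.57 for Cd4, all with an adjusted p of 1.0 in limma. The SE leaves room for differences of several units, and a miss of the threshold does not show that the treatments act alike. Combined minus EPO was 4.77 for Cd93 (adjusted p = 0.173), 4.10 for Cd52 (adjusted p = 0.198), 2.26 for Cd80, a ligand of Cd28 (adjusted p = 0.15), and 2.10 for Cd84 (adjusted p = 0.147). Cd79b had 1.79 and Cd59b -2.71. Treatment and slide overlap in part. Only 1 slide holds both the combined treatment and EPO, with their day 6 arrays, so that with slide as a block combined minus EPO is the difference of those 2 arrays and its p-values are not used. Combined and GM-CSF/IL-3 arrays of the same population share no slide, so that the blocked difference is joined through the EPO arrays. In it the signs of Cd34, Cd52, Cd33, Cd177 and Cd4 turned, at 5.00, 6.65, 7.19, 6.20 and 0.25.

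Day 6 arrays alone were compared between treatments after the data had been seen. EPO and GM-CSF/IL-3 cells differed at least 2-fold in 28 of 53 genes (52.83%), beside 33.4% of all tested genes. Combined and GM-CSF/IL-3 cells differed in 11 (20.75%), beside 7.39%, and combined and EPO cells in 25 (47.17%), beside 29.9%. Between EPO and GM-CSF/IL-3, Cd93 was at least 505-fold lower, Cd52 had -9.59, and Cd59a had 3.58. Between the combined treatment and GM-CSF/IL-3, Cd59b was at least 4.31-fold lower, Cd27 had -2.41, Cd38 -1.39 and Cd177 -1.31, whereas Cd7 had 1.67 and Cd72 1.36. Between the combined treatment and EPO, which shared a slide, Cd93 was at least 395-fold higher, Cd52 had 8.90 and Cd59a -2.64.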

How the data were processed

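Per the labels' protocols, total RNA of sorted EML-C1 cells was labelled with Cy3 (Low Input Quick Amp, 1 colour). Spot intensities were deposited by the authors as Agilent Feature Extraction 11.0.1.1 output (protocol GE1_1100_Jul11, build mm9, per the file headers), and the deposited series matrix held the same intensities. From each log2 processed signal the 75th percentile of the array's non-control spots was subtracted, outlier spots were set to missing, and repeat spots were averaged. Probes were named through RefSeq accessions (20660 genes), and the brightest probe without missing spots was kept. Genes that cleared the background on 2 or more arrays (14217) were fitted in limma 3.58.1 (R 4.3.3), with Benjamini-Hochberg adjustment over all of them at 0.05. The model held treatment and fraction on 6 day 3 arrays, or treatment and population on 9 treated arrays. Both were checked on simulated data. Single arrays were compared by 2-fold counts without a test. The files hold no mean signal, so the normexp alternative (offset 50) used the median signal. Alternatives also covered quantile scaling, matrix values, filters, probe means, slide and left-out arrays. Array number limits precision. The genes, lists and promoter motifs were chosen with earlier results of these data known. Genes were named by a rule: Cd34, those past the threshold, per treatment contrast the 6 largest of 1 sign, per single-array difference the 4 highest and 4 lowest, the 6 brightest and the 5 steadiest. A few genes past the threshold or on the lists are counted but not reported here by name. Genes just outside the threshold, examples of the marker lists and of other CD antigens, and members named for a dim or second probe were added after their values were seen.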

Additional observations from a re-analysis of the deposited data

Results flagged for a closer look

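Some genes were at least 2-fold apart in opposite directions under different treatments. These are differences between single arrays, and the difference between treatments was not tested. Between Sca1-low and Sca1-high cells, Cd209f had -1.67 under EPO and -1.19 under GM-CSF/IL-3, but 1.08 under the combined treatment. Cd40 had -2.80 under GM-CSF/IL-3 and 3.79 under the combined treatment, and Cd86 had 1.28 and -3.12. Where the lower array was not well above background, the signal gives only a bound. Cd209f was at least 3.19-fold lower under EPO and at least 1.74-fold lower under GM-CSF/IL-3. Cd40 was at least 1.77-fold lower under GM-CSF/IL-3 and at least 3.97-fold higher under the combined treatment, and Cd86 was at least 2.09-fold lower under the combined treatment.

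At day 6 against untreated cells, some genes were lower under EPO and higher under both other treatments. No share of all tested genes is given for this pattern, and every treatment is set against the same untreated array. Under EPO, GM-CSF/IL-3 and the combined treatment, Cd93 had -7.46, 2.25 and 1.89, Cd33 had -6.63, 1.76 and 1.04, and Cd52 had -6.00, 3.59 and 2.90. Cd69 had -3.40, 1.55 and 1.67, Cd300e had -2.81, 3.34 and 2.80, and Cd177 had -1.92, 5.58 and 4.27. On the EPO array Cd93, Cd33, Cd300e and Cd177 were not well above background, so that they were at least 106-fold, 42.2-fold, 2.61-fold and 1.39-fold lower there. Cd79b had -4.55 under EPO and 1.21 under GM-CSF/IL-3, and Cd80 had -1.92 and 1.65. Cd79b was at least 20.9-fold lower under EPO. Cd59a had 2.14 under EPO and -1.43 under GM-CSF/IL-3. Cd59b had 2.52 under EPO and -2.84 under the combined treatment, where it was not well above background and so at least 3.51-fold lower. The difference was not tested for any of these genes.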

How the results depend on the processing

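No paired analysis was possible because every label carries replicate 1, so the replicate numbers pair nothing; the day 3 fractions were paired by treatment instead. For Sca1-low minus Sca1-high, 15 CD antigen genes and 1574 of all genes passed. Without a filter 1025 of 20508 genes and 13 of 75 CD antigens passed. With genes well above background on all 10 arrays 2422 of 10621 genes and 9 of 30 CD antigens passed. There the share of the CD antigens lay nearer to that of all genes than in the main fit. With all 10 arrays in an additive model 0 and 0 passed (3582 genes at an unadjusted p under 0.05). Leaving out 1 pair gave 0 to 17 CD antigens and 0 to 2309 genes, with 464 genes without the combined pair. EPO minus GM-CSF/IL-3 had 1 gene, 2 under normexp, 0 with slide as a block, and 0 to 23 with 1 population left out. Combined minus EPO had 1 gene, 3 under normexp, 0 without a filter, 18 with the stricter filter, 865 with slide as a block (12 of them CD antigens; this is the difference of 1 day 6 array a treatment, so these calls are not used), and 0 to 10 with 1 population left out. Combined minus GM-CSF/IL-3 turned sign with slide as a block for Cd177 (6.20), Cd33 (7.19), Cd34 (5.00), Cd4 (0.25) and Cd52 (6.65). With slide as a block, combined minus GM-CSF/IL-3 is joined through the EPO arrays and is not a difference between arrays of the same population. The cause of the other shifts was not tested, apart from fewer genes or arrays entering. Of the 2-fold counts, those with 30 genes under the stricter filter were smaller by construction. Under EPO, GM-CSF/IL-3 and the combined treatment they were 12, 8 and 8 for Sca1-low against Sca1-high, 15, 8 and 13 for Sca1-low against untreated, 1, 6 and 7 for Sca1-high against untreated, 11, 11 and 7 for day 6 against untreated, 3, 10 and 11 for day 6 against Sca1-low, and 12, 4 and 4 for day 6 against Sca1-high. At day 6 they were 11 for EPO against GM-CSF/IL-3, 2 for combined against GM-CSF/IL-3 and 9 for combined against EPO. Under normexp the counts were 2 for EPO Sca1-high, 14 for GM-CSF/IL-3 Sca1-low and 10 for GM-CSF/IL-3 Sca1-high against untreated, 3 for EPO day 6 against Sca1-low, 9 for GM-CSF/IL-3 day 6 against Sca1-high and 4 for combined against GM-CSF/IL-3 at day 6. No share of all genes under these settings is set beside these counts, and the shares given earlier belong to the main setting. The counts are therefore not read as results about the CD antigens. Scaling moved the median of all genes by up to 0.22 log2. Single genes kept direction and side of the threshold in 293 values, lost the call in 41 and gained one in 5. Their sizes moved too. Under normexp Sca1-low minus Sca1-high was 1.00 for Cd59b, beside 2.96 in the main fit, and 0.69 for Cd55b, beside 1.63. It was -1.24 for Cd180, beside -3.74, and -1.58 for Cd74, beside -2.62. Cd34 and Cd52 changed less, at -6.69 beside -7.01 and -5.65 beside -5.81. Signals near background limit the genes measured on few arrays, such as Cd40, Cd79a, Cd86, Cd177 and Cd5l.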
